A study of Mus musculus with 2 samples.

Results

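Aminoacyl-tRNA synthetases join each amino acid to its tRNA, and the charged tRNA then carries it to the ribosome. Cytosolic and mitochondrial ribosomes draw on largely separate sets of these enzymes, both encoded in the nucleus. Several cytosolic synthetases sit in a multisynthetase complex held together by scaffold proteins, while the others work free or in smaller assemblies. Many cytosolic synthetase genes are known targets of ATF4, the transcription factor of the amino acid response, which is made when uncharged tRNA or other stresses slow translation.

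The 39 genes described here are 20 cytosolic synthetases, 16 mitochondrial synthetases and 3 scaffolds of the multisynthetase complex, chosen by name out of 25749 genes measured. All 39 were found by matching Ensembl identifiers to mouse symbols, and all 39 passed the minimum of 1 RPKM in at least 1 library. They were measured by RNA-seq in E14.1 cells, a mouse embryonic stem cell line, with 1 library of cells carrying T136A AHCY and 1 library of cells carrying WT AHCY. AHCY, adenosylhomocysteinase, splits S-adenosylhomocysteine, the by-product of methylation reactions, into adenosine and homocysteine, and T136A is the replacement of a threonine by an alanine. How T136A was introduced, whether either line is 1 clone, and how the cells were grown were left unstated in the labels.

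RPKM is the number of reads of a gene scaled to its exon length in kilobases and to the size of its library. The totals implied by the values were 18396840 reads in the T136A library and 17506154 in the WT library. Ahcy itself stood at 56.6 RPKM in T136A and 52.9 RPKM in WT, a gene-level value that cannot show the changed codon. All 11 embryonic stem cell markers were expressed, at 61.0 to 1969 RPKM in T136A and 34.2 to 2182 RPKM in WT. Of these markers 4 were at least 1.5-fold higher in T136A (Utf1, Dppa4, Tdgf1 and Zfp42), 2 of them at least 2-fold (Utf1 and Dppa4), and 0 were at least 1.5-fold lower. Among all genes that passed the minimum, 10.4% were at least 1.5-fold higher, 3.13% at least 2-fold higher and 11.3% at least 1.5-fold lower. What part the markers have in the levels of the synthetases was not tested. Of 9 fibroblast feeder markers 6 were measured, with a summed level of 7.88 RPKM in T136A and 4.45 RPKM in WT. The highest of them was Thy1, at 5.32 RPKM in T136A and 2.50 RPKM in WT, and Twist2 was at 0 in T136A and Postn at 0 in WT. The part of feeder RNA in the values below was not tested.

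With 1 library a genotype, no spread between replicates exists, so no test was made and no difference here has a replicate check. In bulk RNA, fewer cells with a transcript and less of it per cell cannot be told apart. The log2 ratio used throughout was taken after 1 RPKM was added to the value of each library, T136A over WT, and genes were counted where it reached a fold of 2 or of 1.5. Folds of single genes are plain RPKM ratios. Where whole reads could be recovered from the RPKM values (34 of the 39 genes), a fold is followed by its 95% interval (exact conditional binomial), which reflects counting error alone and describes the pair of libraries rather than the genotypes.

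Transcripts of the cytosolic synthetases were mostly less abundant in T136A, and those of the mitochondrial synthetases were mostly at similar levels in both libraries. The 20 cytosolic transcripts summed to 1422 RPKM in T136A and 1976 RPKM in WT, which is 72.0% of the WT sum. The 16 mitochondrial transcripts summed to 148 RPKM in T136A and 156 RPKM in WT, which is 95.05% of the WT sum. The median log2 ratio was -0.44 over the cytosolic enzymes, -0.03 over the mitochondrial enzymes and -0.03 over all 12320 genes that passed the minimum. The cytosolic median was thus 0.41 below the mitochondrial one on the log2 scale, as a description of these libraries, since genes are not replicates. Under upper-quartile scaling the cytosolic median was -0.29 and the mitochondrial one turned to 0.10, beside 0.10 for all genes.

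Of the 39 genes, 3 were at least 2-fold lower in T136A and 0 at least 2-fold higher, beside 3.1% and 3.13% of all genes that passed the minimum. At the lower threshold 10 of the 39 were at least 1.5-fold lower and 1 was at least 1.5-fold higher, beside 11.3% and 10.4% of all such genes. The cytosolic enzymes held 3 of the 3 genes past 2-fold and 8 of the 10 at least 1.5-fold lower, so 8 of 20. Of the 14 cytosolic genes that share no exon bases with another gene, 4 were at least 1.5-fold lower and 1, Sars, at least 2-fold lower. The mitochondrial enzymes held the other 2, so 2 of 16, a share near that of all genes. None of the 3 scaffolds passed either threshold.

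Because the cytosolic transcripts are abundant, the same counts were also set beside the 2995 genes with a mean of at least 20 RPKM. Of those genes 3.14% were at least 2-fold lower in T136A and 2.5% at least 2-fold higher. At 1.5-fold 9.35% were lower and 10.8% higher, and their median log2 ratio was -0.01.

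**Figure D1:**
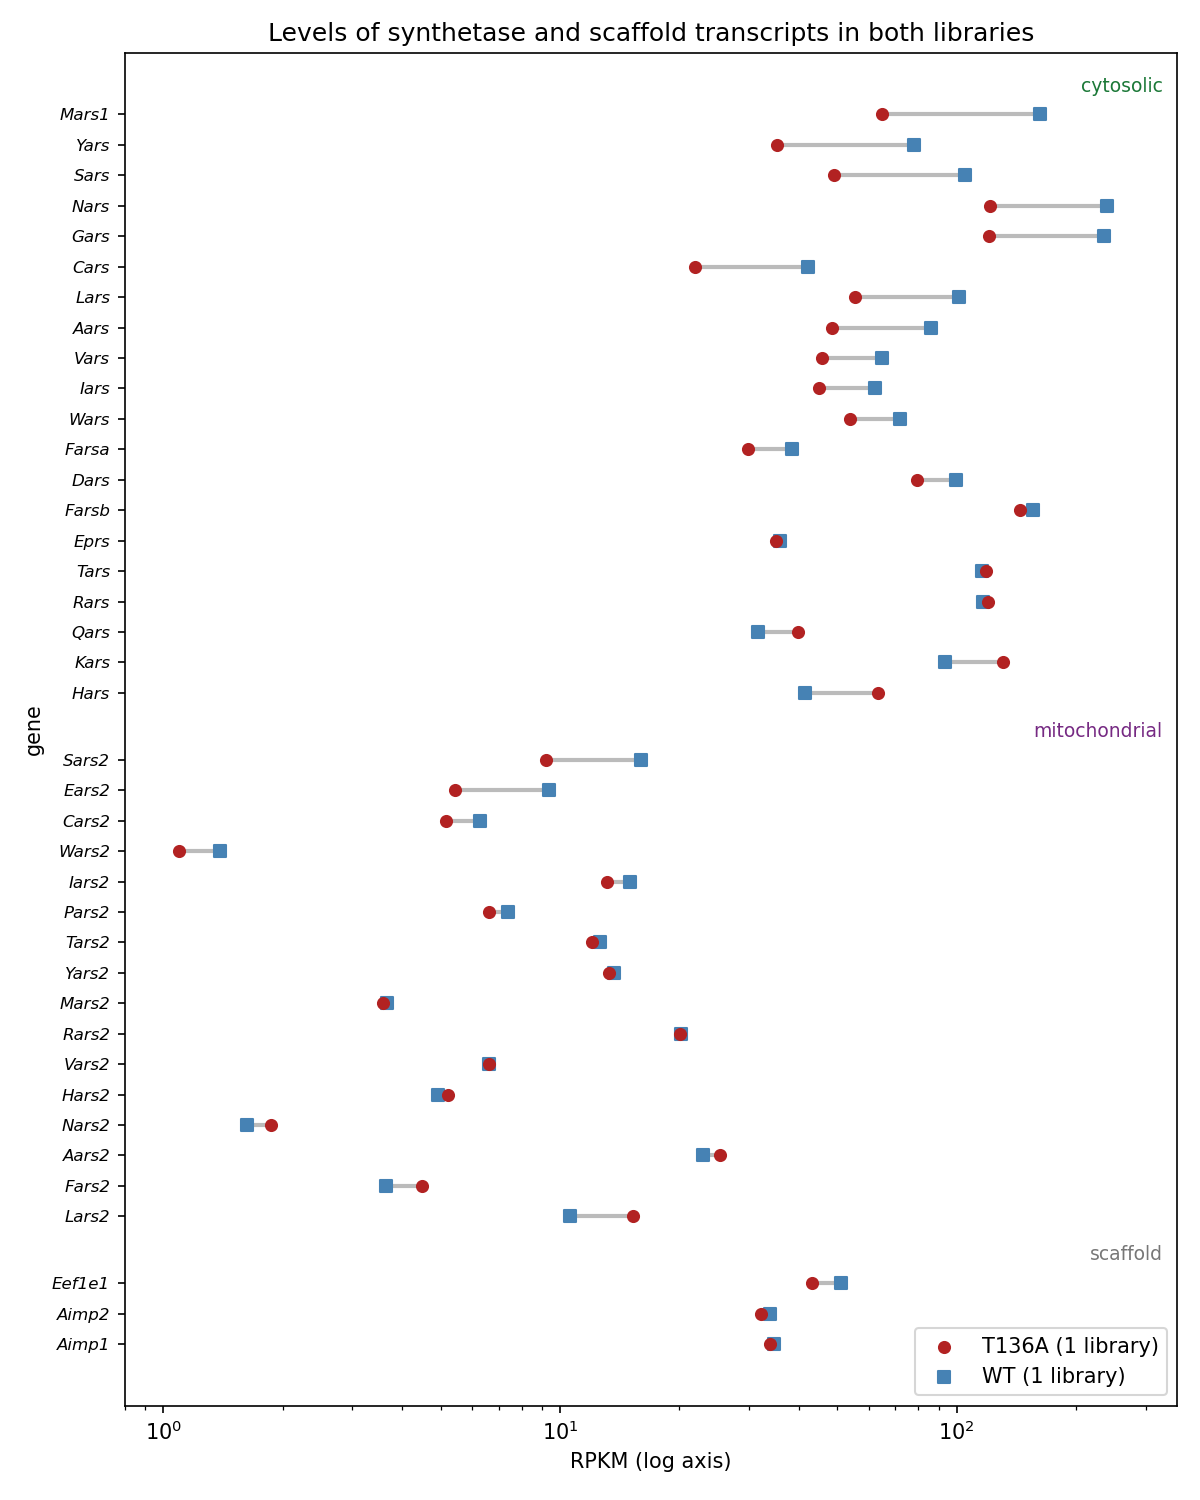
RPKM on a log axis of each synthetase and scaffold gene in the T136A library (circles) and in the WT library (squares), with 1 library a genotype, so no error bars can be drawn. The upper cytosolic genes lie to the left in T136A, from Mars1 at 64.8 RPKM in T136A and 162 in WT, while the last 3, Qars, Kars and Hars, lie to the right, and most mitochondrial pairs nearly coincide.

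Methionyl-tRNA synthetase, Mars1, which charges both the initiator and the elongator methionine tRNA, showed the largest difference of the 39 genes. It stood at 64.8 RPKM in T136A and 162 RPKM in WT, 2.50-fold lower (95% interval 2.41 to 2.59). Its reads numbered 4083 in T136A and 9699 in WT. Mars1 shares 68 exon bases, 1.99% of its exon length, with Ddit3 on the opposite strand, a gene at 7.39 RPKM in T136A and 30.3 RPKM in WT. Whether reads were assigned by strand is not given in the sources used here, and the part of Ddit3 reads in the value of Mars1 was not tested.

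Tyrosyl-tRNA synthetase, Yars, was at 35.2 RPKM in T136A and 78.1 RPKM in WT, 2.22-fold lower (2.14 to 2.31). Seryl-tRNA synthetase, Sars, whose product charges serine tRNA and also the selenocysteine tRNA with serine, was at 49.0 RPKM in T136A and 105 RPKM in WT, 2.14-fold lower (2.07 to 2.22). With Mars1, these were the genes of the family past 2-fold, and under upper-quartile scaling Mars1 alone of them stayed past it.

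The other 5 cytosolic enzymes past 1.5-fold did not reach 2-fold with the values as given. Quantile normalization put Nars just past it, at a log2 ratio of -1.003. Asparaginyl-tRNA synthetase, Nars, had the highest level of the family in WT, and stood at 121 RPKM in T136A and 239 RPKM in WT, 1.97-fold lower. Glycyl-tRNA synthetase, Gars, whose gene supplies both the cytosol and the mitochondria, was at 121 RPKM in T136A and 235 RPKM in WT, 1.94-fold lower (1.888 to 2.002). Cysteinyl-tRNA synthetase, Cars, was at 21.8 RPKM in T136A and 42.1 RPKM in WT, 1.93-fold lower (1.84 to 2.02). Cars shares 211 exon bases, 3.2% of its exon length, with the processed pseudogene Gm15580 on the opposite strand. The intervals of Gars and Cars overlap, so their order is within counting error. Leucyl-tRNA synthetase, Lars, which belongs to the complex and is also a leucine sensor of the mTORC1 pathway, was at 55.5 RPKM in T136A and 101 RPKM in WT, 1.83-fold lower. Alanyl-tRNA synthetase, Aars, was at 48.5 RPKM in T136A and 86.3 RPKM in WT, 1.78-fold lower (1.73 to 1.83). Aars shares 14.3% of its exon length with Exosc6 on the same strand, so some of its reads could belong to either gene.

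A middle group was lower by less than 1.5-fold. Valyl-tRNA synthetase, Vars, was at 45.8 RPKM in T136A and 64.9 RPKM in WT, 1.42-fold lower (1.36 to 1.47). Isoleucyl-tRNA synthetase, Iars, was at 44.9 RPKM in T136A and 62.2 RPKM in WT, 1.39-fold lower (1.33 to 1.44). Tryptophanyl-tRNA synthetase, Wars, was at 53.7 RPKM in T136A and 72.1 RPKM in WT, 1.34-fold lower. The intervals of Vars, Iars and Wars overlap one another and lie between 1.28 and 1.47, below the intervals given for the enzymes above. Aspartyl-tRNA synthetase, Dars, was at 79.6 RPKM in T136A and 99.4 RPKM in WT, 1.25-fold lower (1.21 to 1.29).

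Phenylalanyl-tRNA synthetase is built from a catalytic alpha subunit, Farsa, and a beta subunit, Farsb, and their transcripts differed unequally. Farsa was at 29.7 RPKM in T136A and 38.4 RPKM in WT, 1.29-fold lower (1.22 to 1.36). Farsb was at 144 RPKM in T136A and 156 RPKM in WT, 1.08-fold lower (1.05 to 1.12). Per kilobase of exon, Farsb thus stood 4.84-fold above Farsa in T136A and 4.05-fold above it in WT. Farsb was the most abundant cytosolic synthetase transcript in T136A and ranked 4 in WT.

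Eprs, Rars and Tars had nearly equal levels in both libraries, and their directions, like that of Farsb, turned under upper-quartile scaling (Eprs, Farsb) or quantile normalization (Rars, Tars). Eprs, whose product carries the glutamate and the proline enzyme in 1 chain, was at 35.03 RPKM in T136A and 35.9 RPKM in WT, and its interval of the fold by which it was lower, 0.999 to 1.05, includes 1. Arginyl-tRNA synthetase, Rars, was at 119.8 RPKM in T136A and 117 RPKM in WT, with an interval of the T136A over WT ratio of 0.993 to 1.06. Threonyl-tRNA synthetase, Tars, was at 119 RPKM in T136A and 116 RPKM in WT, a ratio of 1.02.

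The 3 cytosolic synthetases with the highest log2 ratios were Qars, Kars and Hars. Glutaminyl-tRNA synthetase, Qars, was at 39.8 RPKM in T136A and 31.6 RPKM in WT, 1.26-fold higher (1.21 to 1.32). Lysyl-tRNA synthetase, Kars, whose gene makes a cytosolic and a mitochondrial form, was at 130.4 RPKM in T136A and 93.1 RPKM in WT, 1.40-fold higher (1.36 to 1.44). Histidyl-tRNA synthetase, Hars, was at 63.3 RPKM in T136A and 41.5 RPKM in WT, 1.52-fold higher and the 1 gene of the family past 1.5-fold upward, a threshold it no longer met when both libraries were scaled to a common sum. Hars shares 195 exon bases, 7.97% of its exon length, with Hars2 on the opposite strand, and whole reads could not be recovered for it. Reads of Kars could also match its processed pseudogene, Kars-ps1. Qars and Kars belong to the complex and Hars does not.

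**Figure D2:**
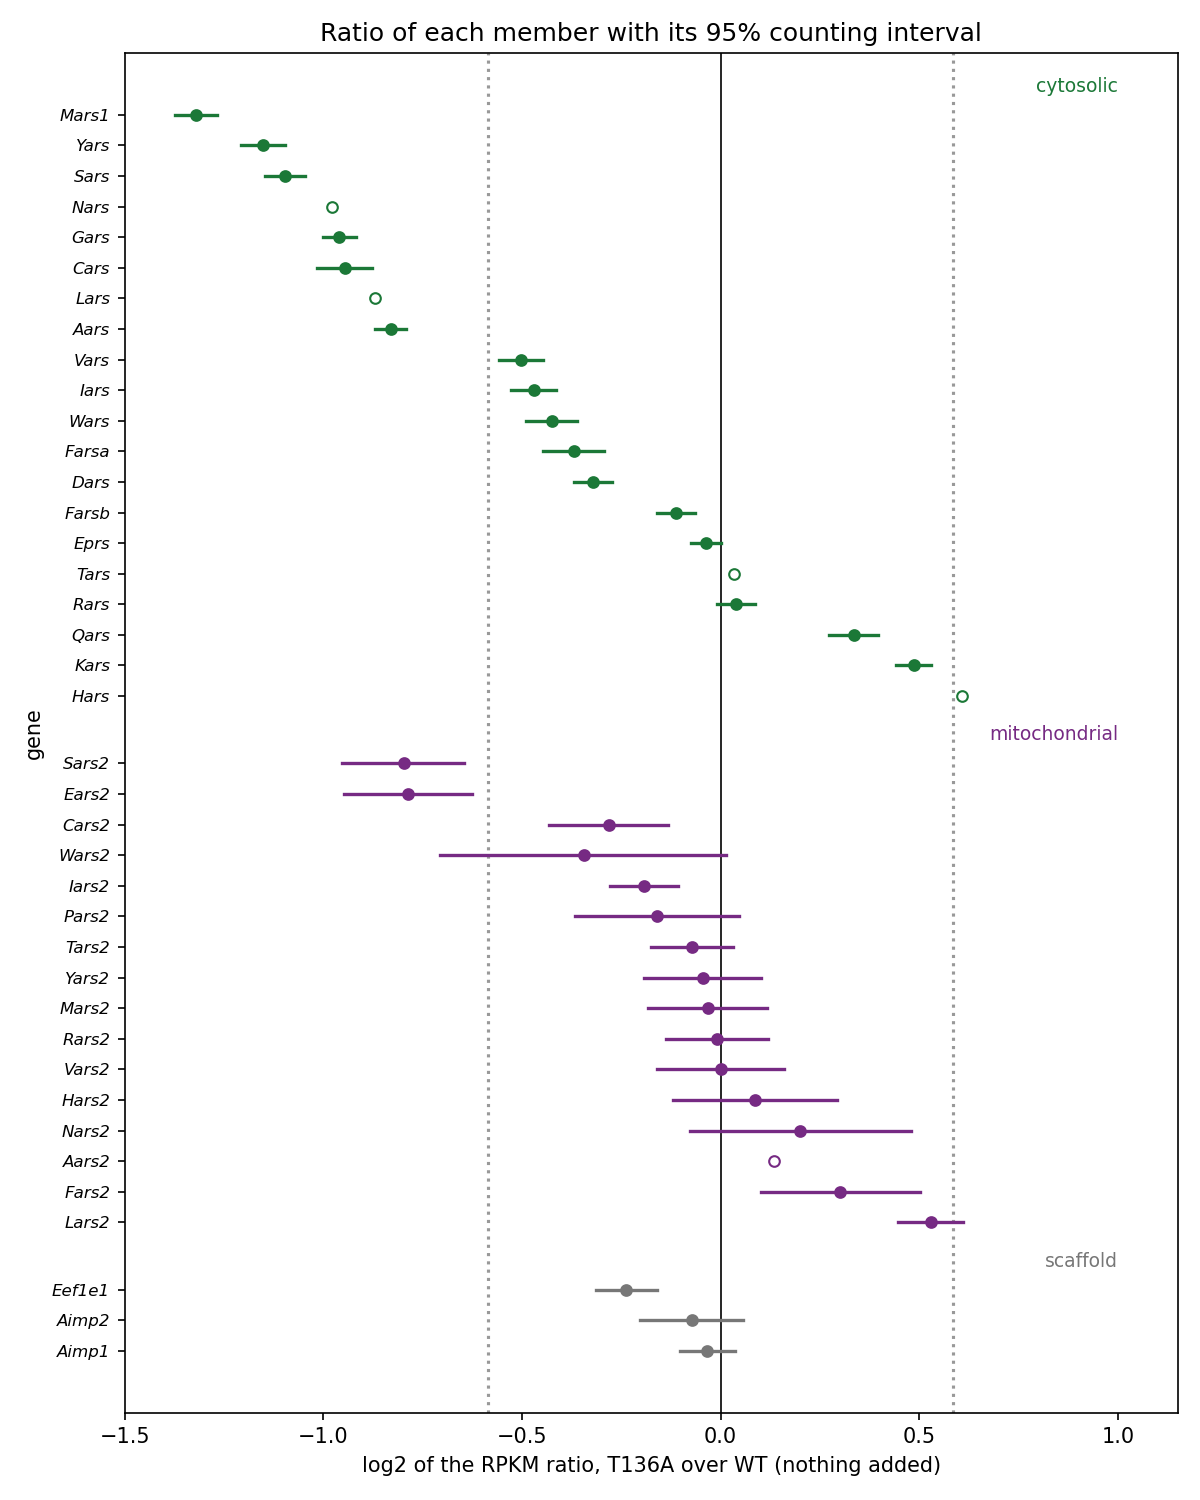
Log2 of the plain RPKM ratio, T136A over WT, of each gene, with bars for the 95% counting interval where whole reads were recovered (filled points) and open points where they were not; dotted lines mark 1.5-fold. Of 16 cytosolic genes with an interval, 12 lie wholly below 0 and 2 wholly above it. Of 15 mitochondrial genes, 4 lie wholly below 0 and 2 wholly above it. Intervals narrow as reads increase, from 120 reads for Wars2 to 11664 for Eprs in T136A, so these counts depend on read depth. The share of all genes with such an interval was not computed.

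The differences changed the order of the cytosolic transcripts. Kars ranked 2 in T136A and 10 in WT, and Hars ranked 9 in T136A and 17 in WT. Mars1 ranked 8 in T136A and 3 in WT, and Cars ranked 20, the lowest, in T136A and 16 in WT. Spearman's rho of the levels between the libraries was 0.797 over the 20 cytosolic genes, 0.932 over the 16 mitochondrial genes and 0.944 over all 12320 genes, as a description of values that share the same pair of libraries. The highest cytosolic transcript exceeded the lowest by 6.59-fold in T136A and by 7.57-fold in WT.

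Within the cytosolic set, both complex members and free enzymes were among the lower transcripts. The 8 enzymes of the complex, Dars, Eprs, Iars, Kars, Lars, Mars1, Qars and Rars, had a median log2 ratio of -0.18 and summed to 81.2% of their WT level. Of these, 2 were at least 1.5-fold lower, Mars1 and Lars, and 0 were at least 1.5-fold higher. The 12 other enzymes had a median of -0.66 and summed to 66.9% of their WT level, with 6 at least 1.5-fold lower and 1 at least 1.5-fold higher. Among all genes that passed the minimum, 11.3% were at least 1.5-fold lower and 10.4% at least 1.5-fold higher. Under upper-quartile scaling the median was -0.025 for the complex enzymes and -0.50 for the others. The transcripts of one physical assembly ranged from 2.50-fold lower for Mars1 to 1.40-fold higher for Kars.

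Synthetases fall into 2 unrelated structural classes by the fold of their catalytic domain. The 9 class I cytosolic enzymes had a median log2 ratio of -0.49 with 4 at least 1.5-fold lower, and the 10 class II enzymes had a median of -0.34 with 4 at least 1.5-fold lower and 1 at least 1.5-fold higher. Beside these counts, 11.3% of all genes were at least 1.5-fold lower and 10.4% at least 1.5-fold higher. Eprs, which joins an enzyme of each class, was put in neither. The class medians of the mitochondrial enzymes were -0.04 for the 9 of class I and 0.07 for the 7 of class II.

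The scaffolds differed little, with a median log2 ratio of -0.07 that turned to 0.08 under upper-quartile scaling. Eef1e1, known as AIMP3, was at 43.2 RPKM in T136A and 51.0 RPKM in WT, 1.18-fold lower (1.12 to 1.24). Aimp2, which anchors several of the enzymes, was at 32.1 RPKM in T136A and 33.7 RPKM in WT. Aimp1 was at 33.9 RPKM in T136A and 34.7 RPKM in WT. The intervals of Aimp1 and Aimp2 include 1, and Aimp2 shares 29.4% of its exon length with Eif2ak1 on the opposite strand, a gene at 11.0 RPKM in T136A and 8.30 RPKM in WT.

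ATF4 binds C/EBP-ATF response elements, and the promoters of the synthetase genes were therefore searched for the core of that element, TGATGNAA, on both strands. The windows are those of RefSeq on the GRCm38.p6 build, 300 bases each, from 250 before the start of transcription to 50 after it, and 30 of the 39 genes had at least 1. Cars, Hars, Lars, Nars, Rars, Vars, Wars, Hars2 and Pars2 had none. The motif was in the windows of 5 of the 13 cytosolic genes that had one, of 0 of 14 mitochondrial genes and of 0 of 3 scaffold genes. Over all 32851 RefSeq windows of the same length, 1304 held it, or 3.97%. The exact form TGATGCAA was in 4 of the 13 cytosolic windows and in 0.895% of all windows.

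Whole windows are shown for 3 genes because they belong to transcripts at least 1.5-fold lower in T136A, with 2 matches, with 1 match and with none; capitals mark the matches. The Aars window is chr8:111033592-111033891 on the plus strand, that of Yars is chr4:129189653-129189952 on the plus strand, and that of Mars1 is chr10:127311737-127312036 on the minus strand.
Aars: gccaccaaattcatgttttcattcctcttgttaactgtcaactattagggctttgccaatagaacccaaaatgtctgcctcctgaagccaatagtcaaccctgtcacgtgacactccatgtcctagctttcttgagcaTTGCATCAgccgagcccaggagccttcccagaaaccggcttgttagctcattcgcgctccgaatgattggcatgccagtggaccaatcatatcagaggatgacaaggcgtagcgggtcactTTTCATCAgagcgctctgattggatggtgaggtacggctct
Yars: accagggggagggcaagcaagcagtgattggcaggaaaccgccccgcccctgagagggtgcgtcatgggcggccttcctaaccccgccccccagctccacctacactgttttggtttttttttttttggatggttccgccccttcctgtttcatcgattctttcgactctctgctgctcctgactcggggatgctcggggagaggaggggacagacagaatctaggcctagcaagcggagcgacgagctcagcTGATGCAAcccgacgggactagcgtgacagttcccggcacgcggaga
Mars1: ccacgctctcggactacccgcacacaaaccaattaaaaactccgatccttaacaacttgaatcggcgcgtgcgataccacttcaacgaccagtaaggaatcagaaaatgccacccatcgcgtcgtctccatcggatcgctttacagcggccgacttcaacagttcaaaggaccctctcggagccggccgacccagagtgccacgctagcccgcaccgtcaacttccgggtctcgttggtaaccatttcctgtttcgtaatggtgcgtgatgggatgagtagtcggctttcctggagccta
The match of Yars lies on the gene's own strand, at bases 3 to 10 counted with the first transcribed base as 0. The matches of Aars lie on the other strand, at -112 to -105 and at 9 to 16, so the capitals show their reverse complement. That Mars1 shows none says only that these letters are not in this window.

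The other 3 genes with a match are shown with 30 bases on each side, again with the match in capitals, because their log2 ratios were unlike. The stretches are chr6:55037941-55038008 on the plus strand for Gars, chr13:49682107-49682174 on the plus strand for Iars and chr15:11399636-11399703 on the minus strand for Tars.
Gars: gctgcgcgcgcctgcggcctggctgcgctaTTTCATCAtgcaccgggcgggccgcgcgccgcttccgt
Iars: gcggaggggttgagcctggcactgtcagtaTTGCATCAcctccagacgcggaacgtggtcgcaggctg
Tars: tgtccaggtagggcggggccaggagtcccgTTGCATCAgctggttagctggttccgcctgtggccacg
All 3 matches lie on the strand opposite to the gene, at -30 to -23 in Gars, at 7 to 14 in Iars and at -15 to -8 in Tars. The log2 ratios of these genes were -0.95 for Gars, -0.46 for Iars and 0.03 for Tars, so the exact form TGATGCAA stood in the window of a transcript that was nearly equal in both libraries. Of the 5 cytosolic genes with a match 3 were at least 1.5-fold lower in T136A, and of the 8 without a match 2 were, Mars1 and Sars. Among all genes 11.3% were. Nars, Lars and Cars, also at least 1.5-fold lower, had no window to search. The Sars window ends just before the start of the gene in GENCODE, so the first transcribed bases of that annotation were not searched. The window ends of Dars and Kars were not found in a GENCODE transcript of the gene either. The split therefore leaves parts of the cytosolic set unsearched. A match is a description of the letters and does not show that a factor binds there.

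The mitochondrial synthetases were expressed at far lower levels. Their median was 6.61 RPKM in T136A and 8.38 RPKM in WT, and the cytosolic median exceeded it by 8.26-fold in T136A and by 10.7-fold in WT. The most abundant, the mitochondrial alanine enzyme Aars2, was at 25.3 RPKM in T136A and 23.0 RPKM in WT, which in T136A was above the lowest cytosolic transcript, Cars, and in WT below the lowest, Qars. The least abundant, the tryptophan enzyme Wars2, was at 1.10 RPKM in T136A and 1.39 RPKM in WT. At 120 reads in T136A and 145 in WT, Wars2 had the widest interval, 0.990 to 1.63-fold lower.

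Sars2 and Ears2 were the mitochondrial transcripts at least 1.5-fold lower. Sars2, the mitochondrial serine enzyme, was at 9.22 RPKM in T136A and 16.0 RPKM in WT, 1.74-fold lower (1.56 to 1.93). Ears2, which loads glutamate and, in mitochondria, also supplies the mischarged tRNA from which glutaminyl-tRNA is made, was at 5.43 RPKM in T136A and 9.37 RPKM in WT, 1.72-fold lower (1.54 to 1.93). Among the amino acids with a separate gene for each compartment, serine was thus the 1 for which both passed 1.5-fold. With 5 RPKM added to each value neither Sars2, at a log2 ratio of -0.56, nor Ears2, at -0.46, reached that threshold, and Ears2 did not reach it under upper-quartile scaling either. Ears2 shares 89 exon bases with Ubfd1 on the opposite strand, a gene at 21.5 RPKM in T136A and 10.7 RPKM in WT.

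Smaller differences followed. The cysteine enzyme Cars2 was at 5.18 RPKM in T136A and 6.29 RPKM in WT, 1.22-fold lower (1.10 to 1.35). The isoleucine enzyme Iars2 was at 13.2 RPKM in T136A and 15.1 RPKM in WT, 1.14-fold lower (1.08 to 1.21), and shares 22.9% of its exon length with Rab3gap2 on the opposite strand. In the other direction, the leucine enzyme Lars2 was at 15.3 RPKM in T136A and 10.6 RPKM in WT, 1.44-fold higher (1.36 to 1.53). The phenylalanine enzyme Fars2, which works as a single chain, was at 4.49 RPKM in T136A and 3.65 RPKM in WT, 1.23-fold higher (1.07 to 1.42).

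The remaining mitochondrial enzymes with an interval, for proline (Pars2), threonine (Tars2), tyrosine (Yars2), methionine (Mars2), arginine (Rars2), valine (Vars2), histidine (Hars2) and asparagine (Nars2), had intervals that include 1. Their log2 ratios, several of which changed sign with the scaling, ran from -0.14 for Pars2 to 0.13 for Nars2. Vars2 stood at 6.61 RPKM in both libraries, and Rars2 at 20.1 RPKM in T136A and 20.2 RPKM in WT. Pars2 was at 6.61 RPKM in T136A and 7.38 RPKM in WT, Tars2 at 12.0 RPKM in T136A and 12.6 RPKM in WT, and Yars2 at 13.3 RPKM in T136A and 13.7 RPKM in WT. These 5 enzymes lay below 0 in log2 ratio, and Hars2 and Nars2 above it. Hars2 was at 5.23 RPKM in T136A and 4.93 RPKM in WT, and Nars2 at 1.86 RPKM in T136A and 1.62 RPKM in WT. Mars2, at 3.58 RPKM in T136A and 3.66 RPKM in WT, was nearly equal where its cytosolic counterpart was the lowest of the family. An interval that includes 1 does not show that the levels were the same in both genotypes.

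**Figure D3:**
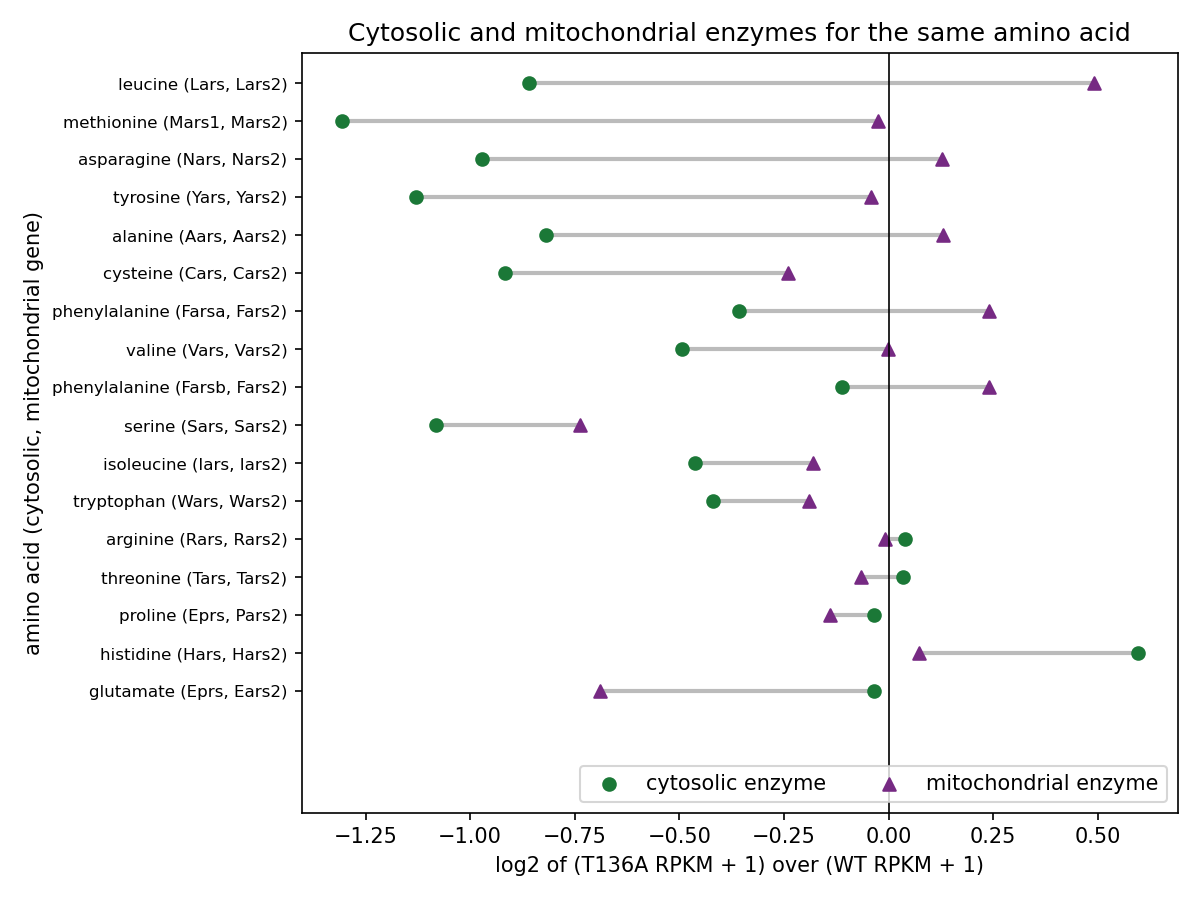
Log2 ratio, T136A over WT, with 1 RPKM added to each value, for the cytosolic enzyme (circle) and the mitochondrial enzyme (triangle) of each amino acid, joined by a line and ordered by their difference. The circle lies left of the triangle in 12 of 17 pairs, most of all for leucine, methionine, asparagine and tyrosine, and right of it in 5, most of all for glutamate and histidine.

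Enzymes for the same amino acid were compared across compartments in 17 pairs covering 16 amino acids. The cytosolic log2 ratio was below the mitochondrial one in 12 pairs and above it in 5, with a median difference of -0.35. It was below in 3 of the 6 pairs left without genes that share exon bases. With a minimum of 5 RPKM in at least 1 library it was below in 7 of 12. In 7 pairs the cytosolic enzyme was lower by more than 1.5-fold relative to its counterpart, and in 1 pair it was higher by that much. Eprs and Fars2 each enter a pair more than once, so the pairs are not independent.

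The largest difference was that of leucine, -1.35, where Lars was lower and Lars2 higher in T136A. Lars exceeded Lars2 by 3.63-fold in T136A and by 9.58-fold in WT, per kilobase of exon. Methionine followed with -1.28, and Mars1 exceeded Mars2 by 18.1-fold in T136A and by 44.3-fold in WT. For asparagine the difference was -1.10, and Nars exceeded Nars2 by 65.1-fold in T136A and by 147-fold in WT. In these pairs the cytosolic transcript was far above the mitochondrial one in both libraries.

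Tyrosine showed a difference of -1.09 and alanine of -0.95, and these pairs had the lowest ratios of cytosolic to mitochondrial transcript in T136A. Yars exceeded Yars2 by 2.65-fold in T136A and by 5.71-fold in WT, and Aars exceeded Aars2 by 1.92-fold in T136A and by 3.75-fold in WT. The serine pair differed by only -0.34, both of its members being lower. The pairs in the other direction were glutamate, 0.65, where Ears2 was lower and Eprs nearly equal, histidine, 0.52, and, with differences of 0.11 or less, proline, threonine and arginine. Hars exceeded Hars2 by 12.1-fold in T136A and by 8.43-fold in WT.

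Other steps of tRNA charging and use had medians nearer that of all genes than the cytosolic synthetases had. The 6 remaining synthetase and amidation genes had a median log2 ratio of 0.13, with 0 past 1.5-fold in either direction. The cytosolic threonine enzyme Tarsl2 was at 1.19 RPKM in T136A and 0.661 RPKM in WT. Gatb, Gatc and Qrsl1, the subunits that turn mitochondrial glutamyl-tRNA into glutaminyl-tRNA, had log2 ratios of -0.29, -0.20 and 0.18, and Mtfmt, which formylates the initiator methionyl-tRNA of mitochondria, had 0.08.

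Of 7 genes that edit mischarged tRNA or release peptidyl-tRNA, 6 passed the minimum, with a median of -0.20. Prorsd1, named for its prolyl-tRNA synthetase-associated domain, was the 1 past 1.5-fold, at 5.26 RPKM in T136A and 8.70 RPKM in WT. Among all genes 11.3% were at least 1.5-fold lower and 10.4% at least 1.5-fold higher. Dtd1, a deacylase that clears D-amino acids from tRNA, had a log2 ratio of -0.41, and the hydrolase Ptrh2 had 0.47. The 6 genes of the selenocysteine tRNA had a median of -0.20 and 0 past 1.5-fold, from Sephs1 at -0.49 to Pstk, the kinase of seryl-tRNA, at 0.25 and the elongation factor Eefsec at 0.31.

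Elongation factors deliver the charged tRNA to the ribosome, and the largest difference among them was upward and mitochondrial. Tufm, the mitochondrial counterpart of the factor that carries the tRNA, was at 133 RPKM in T136A and 51.0 RPKM in WT, with a log2 ratio of 1.36. Gfm1, the mitochondrial translocation factor, was at 36.2 RPKM in T136A and 20.8 RPKM in WT, and Tsfm, which reloads Tufm with GTP, at 32.2 RPKM in T136A and 24.7 RPKM in WT. The 3 lowest were cytosolic: Eef2 was at 976 RPKM in T136A and 1277 RPKM in WT, Eef1b2 at 499.7 RPKM in T136A and 629.9 RPKM in WT, and Eef1a1 at 4838 RPKM in T136A and 5001 RPKM in WT. Of 9 factors 2 were at least 1.5-fold higher and 0 at least 1.5-fold lower, beside 10.4% and 11.3% of all genes. The median of the factors was 0.12.

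Of 59 listed tRNA modification genes, 58 were found and 57 passed, with a median of 0.01. Among those 57, 4 were at least 1.5-fold lower and 2 at least 1.5-fold higher, beside 11.3% and 10.4% of all genes. The lowest were Mettl1, a tRNA guanine methyltransferase, at 10.4 RPKM in T136A and 20.8 RPKM in WT, Yrdc, which starts the threonylcarbamoyl modification of adenosine, with a log2 ratio of -0.82, and Qtrt1, of the queuosine transglycosylase, with -0.75. The highest were Gtpbp3, which modifies mitochondrial tRNA, at 12.2 RPKM in T136A and 5.69 RPKM in WT, Osgep, which completes the modification that Yrdc starts, with 0.69, and Elp3, of the Elongator complex, with 0.53. Yrdc and Osgep thus differed in opposite directions.

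As background for both lists that follow, 11.3% of all genes were at least 1.5-fold lower and 10.4% at least 1.5-fold higher. The 23 genes of tRNA processing and export had a median of -0.02, with 3 at least 1.5-fold higher and 0 at least 1.5-fold lower. Those were the RNA kinase Clp1 with 0.68 and the RNase P and RNase MRP subunits Pop1 with 0.66 and Rpp14 with 0.63. The lowest were Rpp21, Tsen34 and Xpo5 with -0.49, -0.47 and -0.44. The 24 genes of RNA polymerase III and its factors, which transcribe the tRNA genes, had a median of 0.02, with 2 at least 1.5-fold lower, the factor subunits Gtf3c6 with -0.70 and Gtf3c5 with -0.59. Polr3g was the 1 gene at least 1.5-fold higher, at 24.9 RPKM in T136A and 13.6 RPKM in WT. Next in order were Polr3a with 0.45 and Polr3d with 0.42 at the upper end, and Brf2 with -0.38 at the lower end.

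Uncharged tRNA is sensed by the kinase GCN2, encoded by Eif2ak4, which with its activator Gcn1 phosphorylates eIF2alpha, encoded by Eif2s1, and so favours the translation of ATF4. Atf4 was at 105 RPKM in T136A and 306 RPKM in WT, with a log2 ratio of -1.53, below that of every synthetase. Its transcript level says nothing of its translation, and its part in the levels of the synthetases was not tested. Eif2ak4 was at 3.25 RPKM in T136A and 3.82 RPKM in WT, and Gcn1 at 8.72 RPKM in T136A and 9.71 RPKM in WT. Their log2 ratios were -0.18 and -0.14. The intervals of their T136A over WT ratios, 0.747 to 0.968 and 0.853 to 0.946, exclude 1. Impact, which inhibits the kinase, had a log2 ratio of 0.04, and Eif2s1 was at 82.9 RPKM in T136A and 52.2 RPKM in WT, with 0.66.

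**Figure D4:**
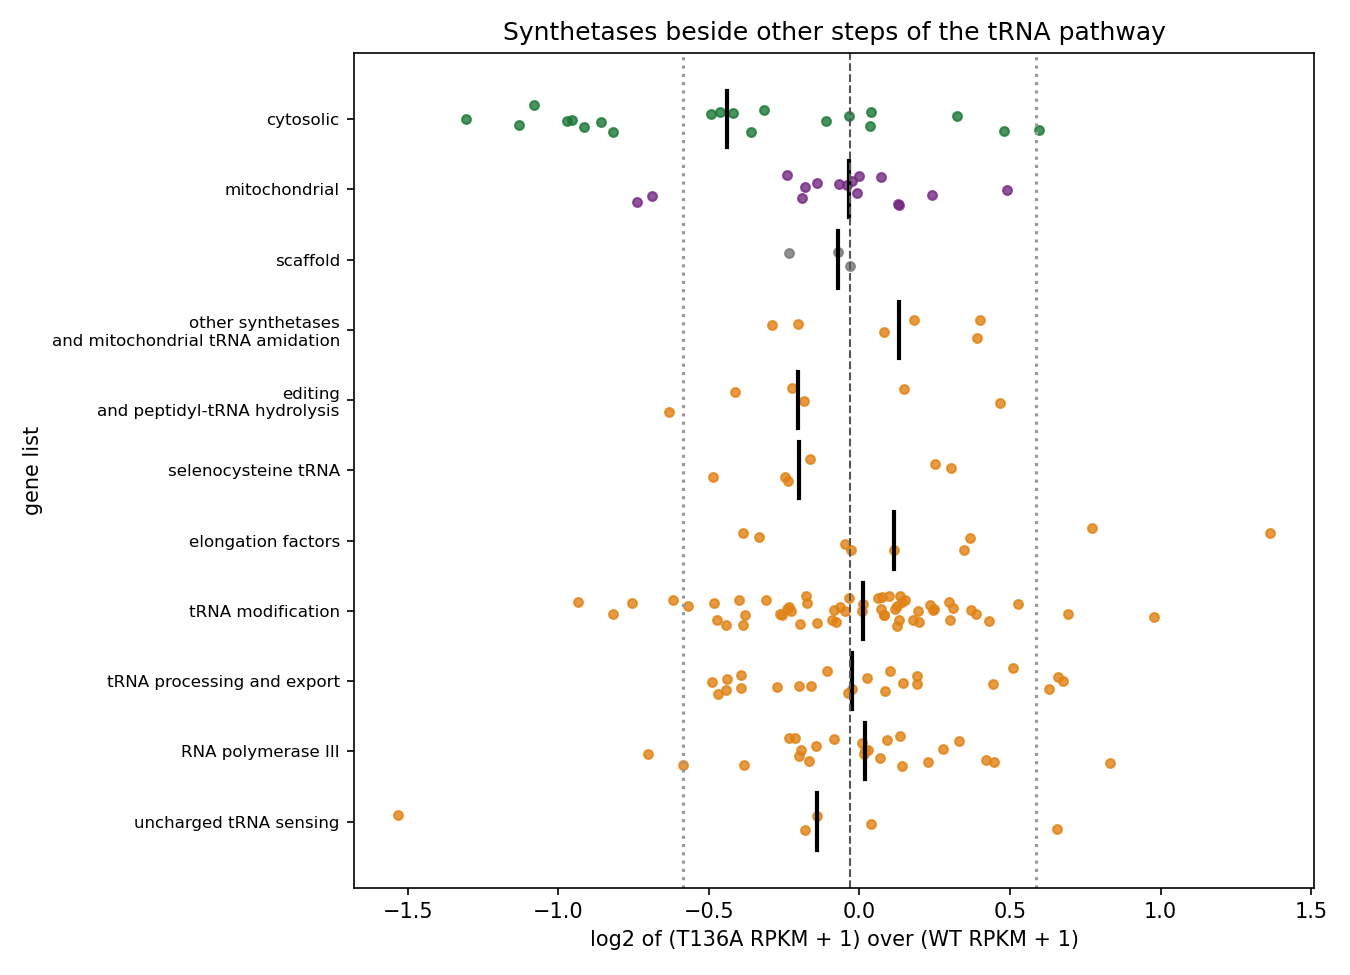
Log2 ratio, T136A over WT, with 1 RPKM added to each value, of each gene (points) with the median (bar) of each list of the tRNA pathway; the dashed line marks the median of all genes, -0.03, and dotted lines mark 1.5-fold. The cytosolic synthetases have the lowest median of the lists drawn, -0.44, and the lowest single point is Atf4 at -1.53.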

How the data were processed

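Total RNA of E14.1 cells was taken up in Trizol and made into libraries with an Illumina TruSeq RNA kit, per the labels' protocols, and an Illumina GAIIx was the sequencer, per the series' design text. CASAVA 1.8 and the mm9 genome appear in the submitters' processing notes without a role. For the aligner, the counting program and its use of strand, no source used here gives an answer. The authors deposited 1 value per Ensembl gene and library, read here as RPKM, reads scaled by exon length and library total. No source names the unit, which was inferred because 90.0% of the positive values in T136A and 89.9% in WT, multiplied by the gene's union exon length (GENCODE M21) and by 1 constant per library, fell within 0.01 of a whole number of reads. Those constants gave the read totals. M21 describes GRCm38, not the mm9 of the notes.

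Symbols were matched for 25696 of 25749 identifiers. The 12320 genes with at least 1 RPKM in at least 1 library were kept, and 1 was added to each value before log2 ratios were taken. Intervals of folds are exact conditional binomial (Clopper-Pearson) at 95%, from scipy 1.17.1, and cover counting error only, since reads carry no molecular identifiers. Python 3.11.15, pandas 2.3.3, numpy 2.4.6 and matplotlib 3.10.9 were also used, and the interval step was tested on simulated reads. Promoter windows and their coordinates are those of RefSeq on GRCm38.p6, matched by symbol. The text names every synthetase and scaffold gene, the 3 highest and 3 lowest genes of each other list by log2 ratio, Ahcy and Atf4; marker genes and genes that share exon bases with a synthetase were named besides, and 1 gene of the other lists is not reported here. The genes and lists were chosen with earlier results of these data known. Alternatives were 2 other pseudocounts, 5 scalings, other minimum levels, recovered reads only, the stricter motif, and leaving out genes that share exon bases.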

Additional observations from a re-analysis of the deposited data

How the results depend on the processing

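Under 12 alternatives and the stricter motif, 255 of 299 list medians, counts and shares stayed within their limit, and 44 did not. The limit was 0.1 (log2) for medians and 1.5 times for counts. For motif shares it was the exact 95% binomial interval of the share with TGATGNAA. The cytosolic median ran from -0.46 to -0.29, the mitochondrial from -0.05 to 0.10, and their difference from -0.47 to -0.35. Upper-quartile scaling multiplied T136A by 1.11 and so put the median of all genes at 0.10, and the mitochondrial and scaffold medians turned above 0 with it. The cytosolic median was then -0.29, with 1 gene at least 2-fold lower and 2 at least 1.5-fold higher, and the mitochondrial median 0.10, with 1 gene at least 1.5-fold lower and 1 higher. Other medians were then 0.079 (scaffolds), -0.025 (complex), -0.50 (free enzymes), 0.27 (other synthetases), -0.10 (editing), -0.059 (selenocysteine), 0.27 (elongation), 0.15 (modification), 0.12 (processing), 0.16 (RNA polymerase III) and -0.00024 (sensing).

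Adding 0.1 RPKM gave 727 of all genes at least 2-fold lower and 723 higher. Adding 5 RPKM gave 114 and 101, at 1.5-fold 518 lower and 523 higher, and 0 cytosolic genes higher and 0 mitochondrial genes lower at 1.5-fold. A common sum left 0 cytosolic genes at least 1.5-fold higher. A minimum of 5 RPKM left 7 of 12 pairs with the cytosolic enzyme lower, and 209 of all genes at least 2-fold higher, 903 lower and 780 higher at 1.5-fold, because fewer genes were measured. Recovered reads alone, taken as plain ratios with nothing added, gave 0 cytosolic genes at least 1.5-fold higher, since Hars had no recovered reads and was left out. Lars also fell out of the complex enzymes, and Nars and Tars fell out of the free enzymes along with Hars. The medians were then -0.037 (complex), -0.83 (free enzymes) and -0.31 (editing), and 684 genes were lower and 638 higher at 2-fold. Leaving out genes that share exon bases, an alternative chosen after the data were seen, took out Hars. At 1.5-fold it left 4 of 14 cytosolic genes lower and 0 higher, and 1 was at least 2-fold lower. It also left 1 of 9 mitochondrial genes at least 1.5-fold lower and 3 of 6 pairs with the cytosolic enzyme lower. Aimp1 and Aimp2 were left out too, so the scaffold value of -0.23 is the log2 ratio of Eef1e1 alone. The stricter motif TGATGCAA was in 0.895% of all windows. The cause of the other moves was not tested.

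Of the 39 genes, 5 (Hars, Ears2, Sars2, Kars and Lars2) crossed the 1.5-fold line in at least 1 alternative, and 11 near 0 changed sign. No paired analysis was possible because each genotype had 1 library. Depth limits the low mitochondrial transcripts most, and the lack of replicates limits every value.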
